A study of Mus musculus with 9 samples.

Results

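The transporters described here are 10 solute carriers of amino acids, Slc7a5, Slc3a2, Slc7a6, Slc43a1, Slc7a1, Slc1a5, Slc1a4, Slc38a1, Slc38a2 and Slc6a9, chosen by gene symbol from a table of raw read counts with 54134 gene entries. All 10 were in the table, and 9 had enough reads to be tested. Messenger RNA was sequenced after poly(A) selection from cells that the sample titles call HT22 and that the cell type label calls HT-4, a wild-type mouse hippocampal neuronal line grown in DMEM with fetal bovine serum. There were 3 groups of 3 libraries. Hb+NTR1 cells received oxyhemoglobin, the oxygenated form of the blood pigment, together with NTR1, a name that the series title writes as NGR1; the sample titles call this group ganyu. Hb cells received oxyhemoglobin alone, and control cells received no intervention. No group received NTR1 alone, so its effect was measured only on top of oxyhemoglobin. The sources used here give neither doses nor exposure times. Nothing in the labels tells whether replicate libraries were grown as separate cultures, and p-values then reflect only the spread among these libraries, which may be technical.

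Amino acids cross the plasma membrane on a small number of carrier families with overlapping substrates. The Slc7 light chains form a disulfide-linked heterodimer with the glycoprotein heavy chain 4F2hc, the product of Slc3a2, and exchange one amino acid for another, whereas the Slc38 carriers take up small neutral amino acids together with sodium. Many of these genes are known targets of ATF4, the transcription factor induced when amino acids run short, and leucine and arginine that enter through them are sensed by the kinase complex mTORC1.

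The libraries held 13415648 to 16893746 counts, and 3 counts, the floor used for a gene without reads, corresponded to 0.178 to 0.224 CPM, where CPM scales counts to a common library total. Across genes the correlation of log2 levels was 0.991 to 0.995 between libraries of the same group, 0.99 to 0.992 between Hb and control libraries, and 0.952 to 0.96 between Hb+NTR1 libraries and the other 6. Of 12 neuron markers examined, 8 stayed under 1 CPM in every library, and of these Map2, Snap25 and Gad1 had no reads in any. Of the other 4, Dlg4 averaged 32.1 normalised CPM in Hb+NTR1 cells, 70.7 in Hb cells and 70.2 in control cells. Tubb3 averaged 5.26 in Hb+NTR1 cells, 36.8 in Hb cells and 32.6 in control cells. Syn1 averaged 19.99 in Hb+NTR1 cells, 25.4 in Hb cells and 24.7 in control cells. Slc17a7 went the other way but averaged under 1 in each group, at 0.995 in Hb+NTR1 cells, 0.145 in Hb cells and 0.154 in control cells. Of the 8 low markers, Syt1 was also highest in Hb+NTR1 cells, at 0.370, against 0.0495 in Hb cells and 0 in control cells. Summed levels of the neuron list were 57.6 to 60.9 normalised CPM in Hb+NTR1 libraries, 128.5 to 135.5 in Hb libraries and 123.9 to 130.2 in control libraries. Of 9 fibroblast markers, 2 stayed under 1 CPM everywhere, and the list summed to 1300 to 1402 in Hb+NTR1 libraries, 11288 to 12731 in Hb libraries and 14006 to 14920 in control libraries. Most of that sum was Col1a2, which averaged 944 in Hb+NTR1 cells, 7381 in Hb cells and 9098 in control cells. Pdgfra differed less, at 64.9 in Hb+NTR1 cells, 78.8 in Hb cells and 109.4 in control cells. Unlike the sum, Col3a1 was higher in Hb than in control cells, at 71.1 in Hb+NTR1 cells, 1771 in Hb cells and 1547 in control cells. For 5 astrocyte markers, of which Slc1a3 is also an amino acid transporter, the sums were 7.95 to 9.76 in Hb+NTR1 libraries, 114.8 to 137.9 in Hb libraries and 199.5 to 228.4 in control libraries. Nearly all of these sums was Slc1a3, which averaged 7.07 in Hb+NTR1 cells, 122.7 in Hb cells and 211.0 in control cells. The other astrocyte markers averaged under 1 in each group. Among them Gfap and Slc1a2 were highest in Hb+NTR1 cells, Aldh1l1 was lowest there, and Aqp4 had no reads. All 5 microglia markers stayed under 1 CPM. Mitochondrially encoded genes took 6.19% to 6.65% of counts in Hb+NTR1 libraries, 4.14% to 4.57% in Hb libraries and 4.73% to 5.20% in control libraries. These differences run alongside every Hb+NTR1 result given next, and their part in those results was not tested. In a bulk sample, fewer cells that express a gene and less of its RNA per cell cannot be told apart.

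Levels are given below as normalised CPM, counts relative to the library total scaled by TMM factors, and tests are from edgeR's quasi-likelihood model fitted to all 9 libraries and 13810 genes, with Benjamini-Hochberg adjustment over those genes and a threshold of 0.05. In Hb+NTR1 cells against Hb cells, 6 of the 9 transporters tested fell, 1 rose and 2 did not pass. Over all genes, 31.6% were called lower and 30.7% higher in this comparison, so calls in either direction were common among all genes; 6 of the 9 transporters were lower beside that background of 31.6%. The median log2 fold change was -0.56 over the 9 transporters and -0.01 over all genes tested. Against control cells, with the same Hb+NTR1 libraries, again 6 were lower, 1 higher and 2 not called, beside 32.2% of all genes lower and 31.4% higher, and the median was -0.67 over the 9 transporters and -0.0042 over all genes. In Hb cells against control cells none of the 9 passed, beside 3.65% of all genes. Groups whose libraries did not overlap were common among all genes. Of the 13810, 4475 lay wholly higher and 4462 wholly lower in Hb+NTR1 than in Hb libraries, beside 1 and 6 of the 9 transporters. For Hb+NTR1 against control these were 4804 and 4845, beside 1 and 6. For Hb against control they were 1314 and 1387, beside 1 and 1.

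**Figure D1:**
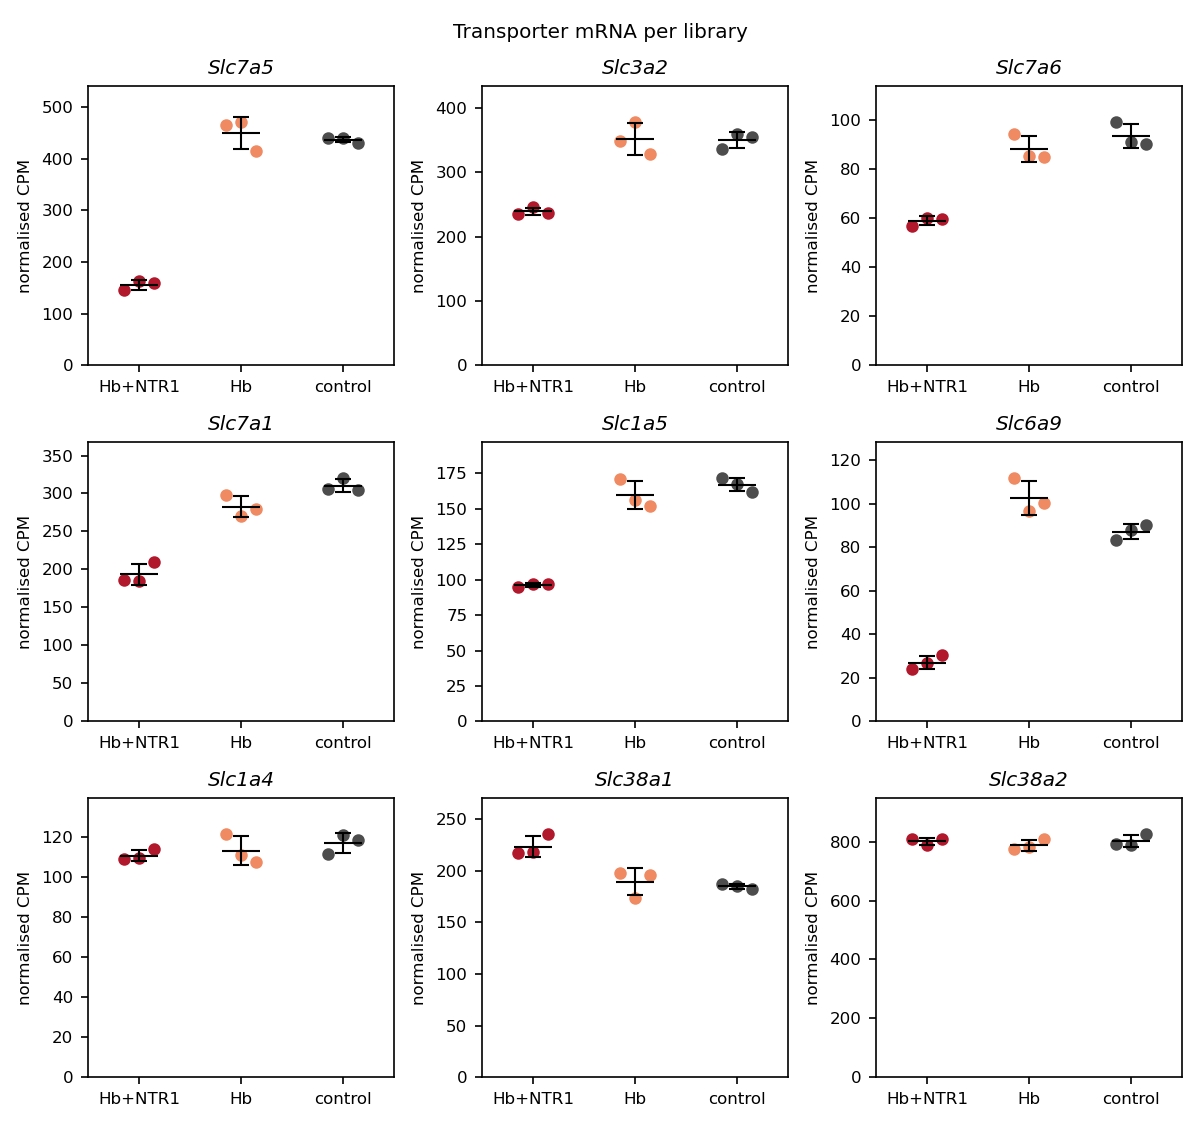
Normalised CPM of the 9 transporters tested (vertical axes, each from 0) in every library (points), with the group mean and SD (black bars, n = 3), for Hb+NTR1, Hb and control. For Slc7a5, Slc6a9, Slc1a5, Slc7a1, Slc7a6 and Slc3a2 the 3 Hb+NTR1 libraries lie below all 6 others, and for Slc38a1 they lie above them.

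The heavy chain gene Slc3a2, on chromosome 19 at chr19:8706882-8723369 (minus strand, GRCm38), encodes the partner that brings several light chains to the cell surface. Its level was 235.2, 245.3 and 236.2 normalised CPM in Hb+NTR1 libraries, 348.6, 377.0 and 327.9 in Hb libraries, and 336.4, 358.6 and 354.8 in control libraries. The Hb+NTR1 libraries did not overlap either of the other groups, which overlapped each other. Slc3a2 fell in Hb+NTR1 cells by 0.56 ± 0.06 on the log2 scale (SE) against Hb (edgeR adjusted p = 5.59e-08) and by 0.55 ± 0.06 against control (edgeR adjusted p = 5.87e-08). 

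Slc7a5, at chr8:121881150-121907694 (minus strand), encodes LAT1, the light chain that imports leucine and other large neutral amino acids. It had 145.6, 163.1 and 159.0 normalised CPM in Hb+NTR1 libraries, 465.1, 470.3 and 414.8 in Hb libraries, and 439.9, 440.2 and 431.2 in control libraries. Every Hb+NTR1 library was far under the lowest of the other 6. It fell by 65.4% against Hb (log2 fold change -1.53 ± 0.07, SE; edgeR adjusted p = 2.26e-15) and fell by 64.3% against control (log2 fold change -1.49 ± 0.07; edgeR adjusted p = 3.10e-15). Only 4.57% of all genes had a log2 fold change at or below that of Slc7a5 against Hb.

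Slc7a6 encodes y+LAT2, a light chain that exchanges cationic for neutral amino acids and also pairs with 4F2hc; it lies at chr8:106168857-106198706 on the plus strand. Its levels were 56.7, 60.1 and 59.7 normalised CPM in Hb+NTR1 libraries, 94.3, 85.3 and 85.0 in Hb libraries, and 98.9, 91.0 and 90.2 in control libraries. All Hb+NTR1 values were under all others, while Hb and control values overlapped. It fell by 0.58 ± 0.07 on the log2 scale against Hb (edgeR adjusted p = 1.69e-07) and by 0.67 ± 0.07 against control (edgeR adjusted p = 1.73e-08).

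Slc43a1 encodes LAT3, a carrier of branched-chain amino acids that works without a heavy chain. It was nearly undetected, with 4, 4 and 2 counts in Hb+NTR1 libraries, 0, 1 and 2 in Hb libraries, and 1, 0 and 0 in control libraries. Its mean was 0.231 CPM in Hb+NTR1 cells, about the level of 3 counts per library, and below that level in Hb cells (0.0722) and control cells (0.0201), and it did not enter the tests.

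Because the light chains need the heavy chain, the ratio of their counts was taken within each library, where it does not depend on scaling between libraries. The ratio of Slc7a5 to Slc3a2 counts was 0.619, 0.665 and 0.673 in Hb+NTR1 libraries, 1.33, 1.25 and 1.26 in Hb libraries, and 1.31, 1.23 and 1.22 in control libraries. The mean was 0.652 ± 0.0291 in Hb+NTR1 cells, 1.28 ± 0.0460 in Hb cells and 1.25 ± 0.0502 in control cells (SD, n = 3). The Hb+NTR1 ratios did not overlap those of either other group, and the exact permutation test, two-sided, gave p = 0.1 against each, the smallest p that 3 against 3 libraries allow. The log2 ratio differed by -0.98 against Hb and by -0.94 against control. The ratio of Slc7a6 to Slc3a2 was 0.246 ± 0.00595 in Hb+NTR1 cells, 0.252 ± 0.0230 in Hb cells and 0.267 ± 0.0231 in control cells (SD, n = 3), with exact permutation p = 0.8 against Hb and p = 0.1 against control. Over the 4 ratios and 3 comparisons described here, 12 tests, no ratio can pass 0.05 at this number of libraries.

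**Figure D2:**
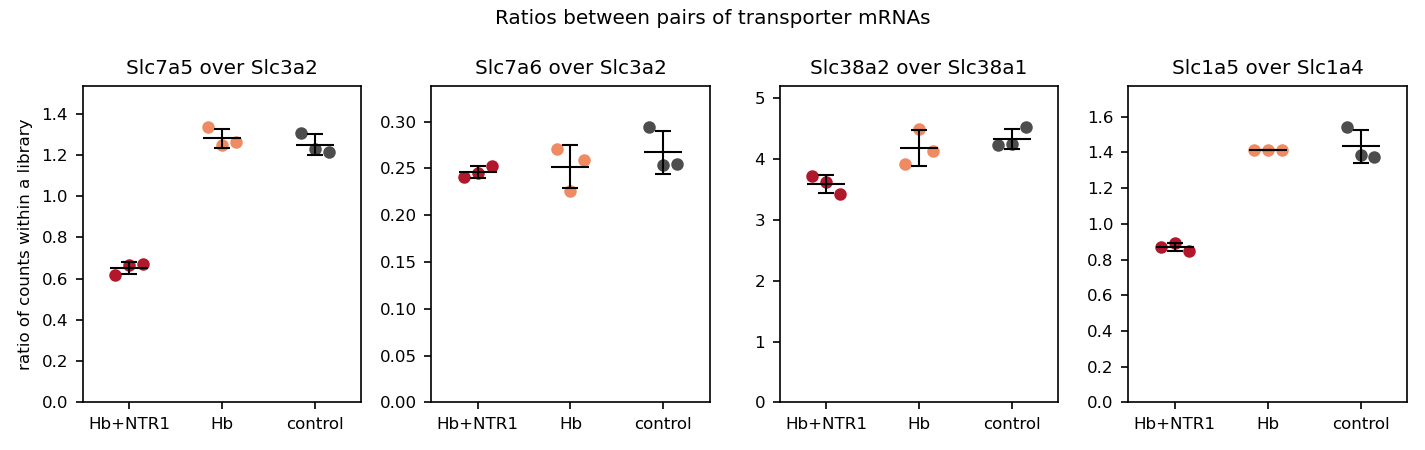
Ratio of the counts of 2 transporter genes within a library (vertical axes, from 0) for 4 pairs, with 1 point per library and black bars at the group mean and SD (n = 3), for Hb+NTR1, Hb and control. The ratios of Slc7a5 to Slc3a2 and of Slc1a5 to Slc1a4 are lower in all 3 Hb+NTR1 libraries than in the other 6, while that of Slc7a6 to Slc3a2 overlaps between Hb+NTR1 and Hb.

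Slc7a1 encodes CAT1, the main carrier of arginine and lysine in many cells, and lies at chr5:148327410-148399904 on the minus strand. It had 186.3, 185.2 and 209.3 normalised CPM in Hb+NTR1 libraries, 297.8, 270.8 and 279.7 in Hb libraries, and 305.7, 319.8 and 304.6 in control libraries. The 3 groups did not overlap, with control highest. Slc7a1 fell in Hb+NTR1 cells by 0.55 ± 0.06 on the log2 scale against Hb (edgeR adjusted p = 1.02e-07) and by 0.68 ± 0.06 against control (edgeR adjusted p = 2.60e-09). In Hb cells the log2 fold change against control was -0.13 ± 0.06, with an unadjusted p of 0.0484 and an edgeR adjusted p of 0.303.

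Slc1a5 and Slc1a4 encode the related sodium-dependent exchangers ASCT2, which carries glutamine, and ASCT1, which carries alanine, serine and cysteine. Slc1a5, at chr7:16781340-16798274 on the plus strand, had 94.7, 97.2 and 96.8 normalised CPM in Hb+NTR1 libraries, 171.3, 156.4 and 152.1 in Hb libraries, and 171.5, 167.9 and 162.0 in control libraries. Slc1a4, at chr11:20302180-20332713 on the minus strand, had 108.6, 109.2 and 113.8 normalised CPM in Hb+NTR1 libraries, 121.1, 110.6 and 107.4 in Hb libraries, and 111.3, 121.0 and 118.1 in control libraries. The Slc1a5 levels of Hb+NTR1 cells stood clear of the others, whereas the Slc1a4 levels of the groups overlapped. Slc1a5 fell by 39.8% against Hb (log2 fold change -0.73 ± 0.06, SE; edgeR adjusted p = 6.86e-10) and by 42.4% against control (log2 fold change -0.80 ± 0.06; edgeR adjusted p = 1.41e-10). For Slc1a4 the log2 fold change was -0.03 against Hb, with a 95% interval of -0.17 to 0.10 (edgeR adjusted p = 0.693), and -0.08 against control, with an interval of -0.22 to 0.06 (edgeR adjusted p = 0.305). The ratio of Slc1a5 to Slc1a4 counts was 0.871 ± 0.0202 in Hb+NTR1 cells, 1.42 ± 0.000569 in Hb cells and 1.43 ± 0.0934 in control cells (SD, n = 3), with exact permutation p = 0.1 against either group.

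The sodium-coupled carriers SNAT1 and SNAT2, which take up glutamine and other small neutral amino acids, are encoded by Slc38a1 (chr15:96571418-96642913) and Slc38a2 (chr15:96687392-96699730). The genes are neighbours on the minus strand, 44.478 kb apart with no protein-coding gene annotated between them. Slc38a1 had 216.8, 217.7 and 235.1 normalised CPM in Hb+NTR1 libraries, 198.0, 174.1 and 195.9 in Hb libraries, and 187.4, 185.4 and 182.3 in control libraries. All Hb+NTR1 libraries were above the others, by a smaller margin than the falls of the other genes. It rose by 0.24 ± 0.06 on the log2 scale against Hb (edgeR adjusted p = 0.00245) and by 0.27 ± 0.06 against control (edgeR adjusted p = 0.000748), the single transporter of the 9 tested that was higher in Hb+NTR1 cells.

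Slc38a2 was the most abundant transporter by counts, with 807.8, 787.2 and 806.9 normalised CPM in Hb+NTR1 libraries, 773.8, 781.2 and 809.3 in Hb libraries, and 791.8, 787.4 and 824.1 in control libraries. The groups overlapped throughout. Its log2 fold change was 0.02 against Hb, with a 95% interval of -0.10 to 0.14 (edgeR adjusted p = 0.755), and -0.00078 against control, with an interval of -0.12 to 0.12 (edgeR adjusted p = 0.992). The sign of the value against control was positive under DESeq2 size factors (0.0061) and library totals alone (0.06). The ratio of Slc38a2 to Slc38a1 counts was 3.59 ± 0.148 in Hb+NTR1 cells, 4.18 ± 0.292 in Hb cells and 4.33 ± 0.164 in control cells (SD, n = 3), with exact permutation p = 0.1 against either. The next gene of the family along the chromosome, Slc38a4, 295.089 kb beyond Slc38a2 with no protein-coding gene between, fell by 1.56 ± 0.06 against Hb (edgeR adjusted p = 1.01e-15), so these 3 neighbours comprised 1 gene that rose, 1 that did not pass and 1 that fell.

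Slc6a9 encodes GlyT1, a sodium- and chloride-dependent glycine transporter, and lies at chr4:117834506-117875198 on the plus strand. It had 24.0, 26.9 and 30.4 normalised CPM in Hb+NTR1 libraries, 111.7, 96.6 and 100.4 in Hb libraries, and 83.5, 88.0 and 90.2 in control libraries. The 3 groups did not overlap, with Hb+NTR1 lowest and Hb highest. It fell by 73.7% against Hb, the largest fall of the 9 transporters tested (log2 fold change -1.93 ± 0.09, SE; edgeR adjusted p = 3.74e-15), and fell by 69.0% against control (log2 fold change -1.69 ± 0.09; edgeR adjusted p = 3.48e-14). In Hb cells against control cells the log2 fold change was 0.24 ± 0.08, with an edgeR adjusted p of 0.103. That value passed the threshold without Hb replicate 2 (log2 fold change 0.28, edgeR adjusted p = 0.0137) and with library totals in place of TMM factors (0.28, adjusted p = 0.0421). Over all alternatives run the edgeR or DESeq2 adjusted p was between 0.0137 and 0.328.

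Counts of Slc6a9 are less certain than those of the other transporters. Its exons share bases with Ccdc24 (27.8% of the exonic bases of Slc6a9), Gm17114 (9.94%) and B4galt2 (0.895%), all annotated on the opposite strand, and the sources used here do not give the strand setting of the counting. Gm17114 had no counts. B4galt2, which encodes a galactosyltransferase, had 32.5 ± 1.87 normalised CPM in Hb+NTR1 cells, 128.4 ± 17.9 in Hb cells and 124.2 ± 5.04 in control cells (SD, n = 3), and fell by 1.98 ± 0.09 on the log2 scale against Hb (edgeR adjusted p = 3.20e-15). Ccdc24 was low, at 0.208 ± 0.0690 in Hb+NTR1 cells, 0.869 ± 0.317 in Hb cells and 0.722 ± 0.300 in control cells. Without strand information, reads that lie within the shared bases cannot be told apart, and their part in the Slc6a9 counts was not tested. No other transporter of the 10 shared exonic bases with another annotated gene.

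**Figure D3:**
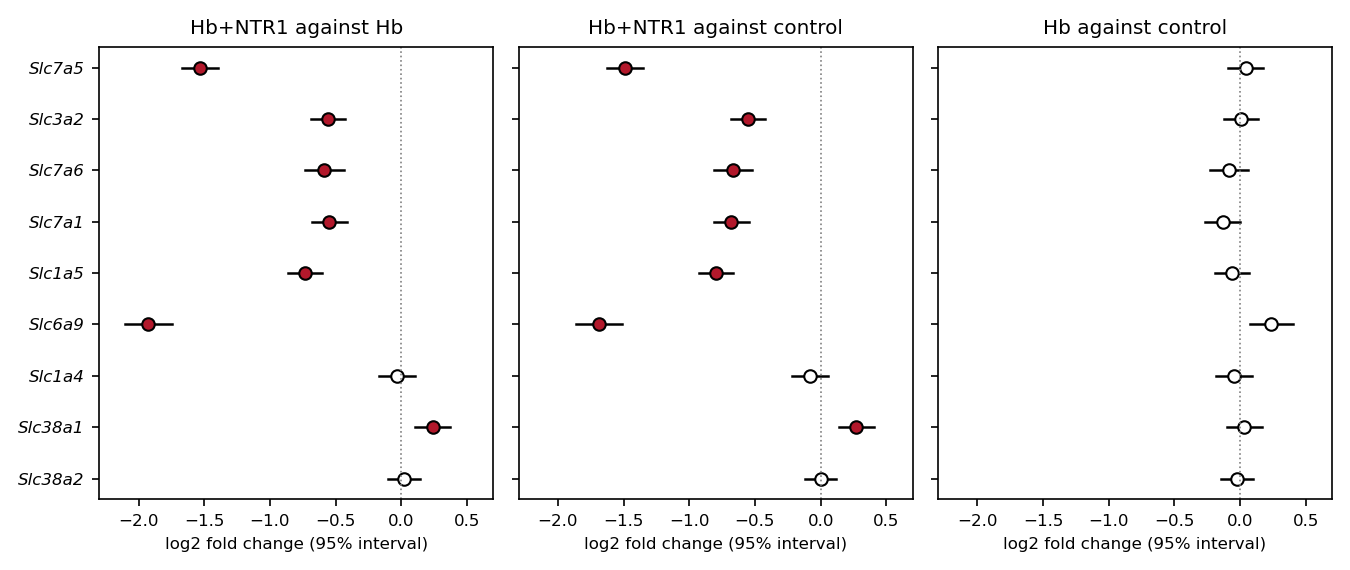
Log2 fold change with its 95% interval (horizontal axes) of the 9 transporters tested, for Hb+NTR1 against Hb, Hb+NTR1 against control and Hb against control; filled points passed an adjusted p of 0.05. Slc6a9 and Slc7a5 lie farthest below 0 in both comparisons of Hb+NTR1 cells, Slc38a1 alone is above 0 with a call, and no point is filled in Hb against control.

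Promoter sequence is shown for 5 transporters that behaved differently, Slc3a2, Slc7a1 and Slc7a6, which fell in Hb+NTR1 cells, and Slc38a2 and Slc1a4, which did not pass the test. The windows are from RefSeq on GRCm38.p6, run 5′ to 3′ on the strand of the gene, and cover 250 bases before and 50 after a transcript start. RefSeq windows were matched by symbol for 7 of the 10 genes, with 11 windows in all. No entry was found for Slc7a5, Slc38a1 and Slc1a5. Capitals mark a match, on either strand, to 1 of 3 motifs: TGATGNAA, the composite element bound by ATF4 with C/EBP proteins, TGACNNNGC, the core of the antioxidant response element, and CACGTG, the E-box bound by MYC and related factors. The windows lie at chr19:8713848-8714147 and chr5:148399855-148400154 on the minus strand, at chr8:106168604-106168903 on the plus strand, and at chr15:96699679-96699978 and chr11:20332664-20332963 on the minus strand.
Slc3a2: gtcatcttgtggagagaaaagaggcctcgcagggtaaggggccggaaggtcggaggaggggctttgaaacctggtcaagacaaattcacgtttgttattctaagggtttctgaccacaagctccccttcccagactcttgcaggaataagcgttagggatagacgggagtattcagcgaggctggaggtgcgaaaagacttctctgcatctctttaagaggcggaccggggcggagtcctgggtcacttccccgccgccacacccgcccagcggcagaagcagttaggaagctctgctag
Slc7a1: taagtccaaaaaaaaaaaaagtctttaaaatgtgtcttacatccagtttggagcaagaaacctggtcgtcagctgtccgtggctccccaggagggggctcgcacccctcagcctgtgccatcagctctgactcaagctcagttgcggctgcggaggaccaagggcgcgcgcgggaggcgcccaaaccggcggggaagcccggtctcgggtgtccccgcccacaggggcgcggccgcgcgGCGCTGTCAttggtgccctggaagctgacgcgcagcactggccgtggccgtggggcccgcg
Slc7a6: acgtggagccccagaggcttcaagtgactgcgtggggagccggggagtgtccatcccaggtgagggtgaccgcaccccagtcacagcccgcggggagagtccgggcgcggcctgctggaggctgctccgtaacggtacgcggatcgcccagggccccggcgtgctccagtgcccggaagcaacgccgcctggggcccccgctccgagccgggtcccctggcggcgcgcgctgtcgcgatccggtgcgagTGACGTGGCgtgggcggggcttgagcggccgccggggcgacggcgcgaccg
Slc38a2: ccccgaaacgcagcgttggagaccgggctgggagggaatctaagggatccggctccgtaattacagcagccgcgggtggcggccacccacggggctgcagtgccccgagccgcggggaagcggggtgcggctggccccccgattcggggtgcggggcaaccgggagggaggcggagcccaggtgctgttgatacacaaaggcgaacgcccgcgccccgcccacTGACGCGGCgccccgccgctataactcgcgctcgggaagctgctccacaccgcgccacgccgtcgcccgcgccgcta
Slc1a4: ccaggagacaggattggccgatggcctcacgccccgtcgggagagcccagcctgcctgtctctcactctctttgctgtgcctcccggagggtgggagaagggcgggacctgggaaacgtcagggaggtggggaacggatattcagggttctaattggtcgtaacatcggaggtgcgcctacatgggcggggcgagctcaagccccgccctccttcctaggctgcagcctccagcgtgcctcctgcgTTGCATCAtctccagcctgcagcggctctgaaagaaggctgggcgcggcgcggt

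The composite element matched in 1 of the 7 genes with a window, Slc1a4, where the printed strand reads TTGCATCA, the reverse complement of the motif, across the start, with its first base at position -4. Over all RefSeq promoters of this length the element was found in 4.51% of genes. The antioxidant core matched in 5 of the 7 genes, Slc7a1, Slc7a6, Slc38a2, Slc6a9 and Slc43a1, against 13.99% of all genes. By window it matched in 7 of 11, against 12.39% of all windows. Of these, the 2 windows of Slc7a6 overlap and hold the same site, which is counted in both. For Slc7a1 and Slc6a9, 1 window each, not shown, held no match to this core. The GC content of the 11 windows was 51.67% to 76.67%, and its part in these matches was not tested. The motifs were chosen with earlier results of these data known, and no difference in shares was tested. The E-box matched in Slc43a1 alone of the 7, against 8.09% of all genes. The shown Slc3a2 window held no match to any of the 3 motifs. Matches occurred both in genes that fell in Hb+NTR1 cells (Slc7a1, Slc7a6 and Slc6a9) and in genes that did not pass the test (Slc38a2 and Slc1a4). A match of letters is not evidence of binding.

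Oxyhemoglobin alone gave no transporter that passed the test. In Hb cells against control cells, edgeR called none of the 9, beside 3.65% of all genes, and DESeq2 also called none. An unadjusted edgeR p under 0.05 was found for 2 of them (Slc6a9 and Slc7a1). The share of all genes at that unadjusted p is not given here or for the lists below, so such counts stand without a background. The log2 fold changes ranged from -0.13 (Slc7a1) to 0.24 (Slc6a9), with a median of -0.02. The 95% interval of Slc7a5 was -0.09 to 0.17 around 0.04, that of Slc3a2 was -0.12 to 0.13 around 0.01, and that of Slc38a2 was -0.14 to 0.10 around -0.02. Over all genes 504 were called in this comparison, 259 higher and 245 lower in Hb cells, and with library totals in place of TMM factors the split was 377 higher and 196 lower.

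Levels of different genes were compared per kilobase of exon. In Hb+NTR1 cells the order was led by Slc38a2 at 90.6 normalised CPM per kilobase, followed by Slc3a2 at 67.7, Slc7a5 at 42.0, Slc1a4 at 28.2, Slc1a5 at 23.1 and Slc7a1 at 16.8. Slc38a1 at 12.95 and Slc7a6 at 12.87 did not differ beyond their spread, and Slc6a9 at 5.27 and Slc43a1 at 0.0405 came last. In Hb cells the order began with Slc7a5 at 121.4, Slc3a2 at 99.5 and Slc38a2 at 89.2, followed by Slc1a5 at 38.3, Slc1a4 at 28.8, Slc7a1 at 24.5, Slc6a9 at 20.0, Slc7a6 at 19.3, Slc38a1 at 11.0 and Slc43a1 at 0.0126, and the libraries of Slc6a9 and Slc7a6 overlapped. In control cells it was Slc7a5 at 117.9, Slc3a2 at 99.2, Slc38a2 at 90.6, Slc1a5 at 40.1, Slc1a4 at 29.7, Slc7a1 at 26.9, Slc7a6 at 20.4, Slc6a9 at 16.97, Slc38a1 at 10.7 and Slc43a1 at 0.00351. Slc7a5 was thus at the top in Hb and control cells and below Slc38a2 and Slc3a2 in Hb+NTR1 cells, and Slc1a5 stood below Slc1a4 in Hb+NTR1 cells alone. Exon length was taken over all annotated transcripts, so a gene whose cells use a short form is placed too low.

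**Figure D4:**
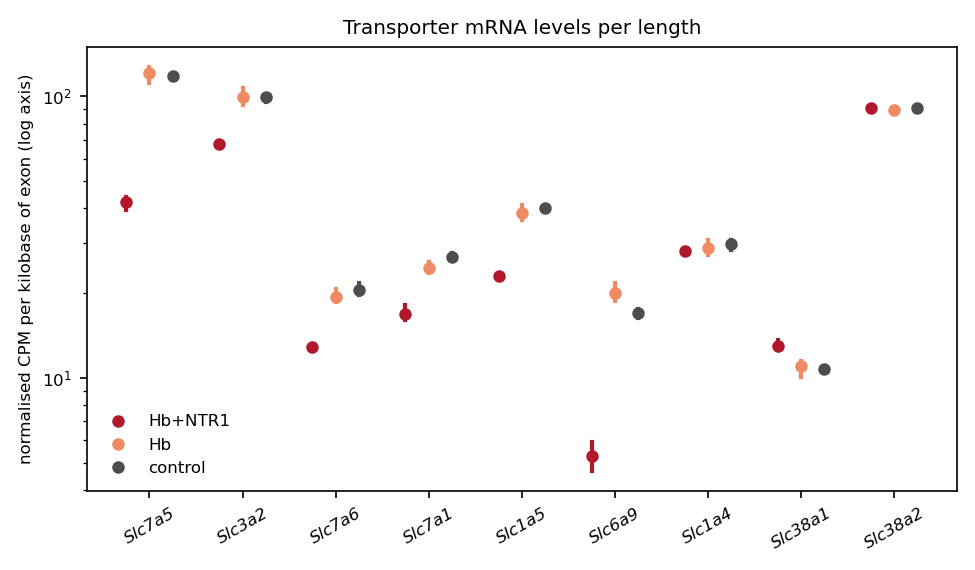
Mean normalised CPM per kilobase of exon (log axis) of the 9 transporters tested in Hb+NTR1, Hb and control cells, with lines over the range of the 3 libraries. Slc38a2 is at the top in Hb+NTR1 cells (90.6) and Slc7a5 in Hb and control cells (121.4 and 117.9).

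Added up, the 10 transporters had 299.5 ± 5.38 normalised CPM per kilobase in Hb+NTR1 cells, 452.0 ± 15.8 in Hb cells and 452.5 ± 3.92 in control cells (SD, n = 3). Slc7a5 made up 14.0% ± 0.625 of that sum in Hb+NTR1 cells, 26.8% ± 0.958 in Hb cells and 26.1% ± 0.407 in control cells. The share of Slc38a2 was 30.3% ± 0.787 in Hb+NTR1 cells, 19.8% ± 1.18 in Hb cells and 20.0% ± 0.517 in control cells, although its own level differed little. The share of Slc3a2 was 22.6% ± 0.556 in Hb+NTR1 cells, 22.0% ± 1.11 in Hb cells and 21.9% ± 0.561 in control cells.

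The genes whose pattern over the 9 libraries was nearest to that of Slc3a2, by root mean square distance of centred log2 levels, were Ebna1bp2 (0.0325), Cd81 (0.0357), Slc35b1 (0.0362), Gm6472 (0.0444) and Atf1 (0.0445). Among the transporters, Slc7a6 came at place 370 of 13810 genes, Slc7a1 at 516 and Slc1a5 at 781. Slc1a4 was at 3796, Slc38a2 at 4650 and Slc38a1 at 7956. Slc7a5 and Slc6a9, which fell further than Slc3a2, were at 9368 and 11852.

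A wider list of 45 other amino acid transporters had 20 members with enough reads to test. In Hb+NTR1 cells against Hb cells, 11 rose and 5 fell (55% and 25% of the 20), beside 30.7% and 31.6% of all genes, with a median log2 fold change of 0.36 beside -0.01 over all genes. Against control cells 12 rose and 4 fell (60% and 20%), beside 31.4% and 32.2% of all genes, with a median of 0.37. Slc1a3, the glial glutamate transporter GLAST, fell to 7.07 ± 0.477 normalised CPM in Hb+NTR1 cells, against 122.7 ± 12.3 in Hb cells (SD, n = 3), a log2 fold change of -4.12 ± 0.10 (SE; edgeR adjusted p = 3.36e-20). Slc6a7, a proline transporter, had no counts in any Hb+NTR1 library and was at least 4.19-fold lower than in Hb cells and at least 3.001-fold lower than in control cells, taking 3 counts per Hb+NTR1 library as the floor; placed at this bound it leaves both medians of the list as given. Slc38a4, a relative of SNAT1 and SNAT2, fell to 59.5 ± 1.89 normalised CPM in Hb+NTR1 cells, against 175.2 ± 6.67 in Hb cells. Those that rose most were Slc43a2, which encodes LAT4 (log2 fold change 3.14 ± 0.47), Slc3a1, the heavy chain related to Slc3a2 (2.04 ± 0.48), and Ctns, the lysosomal cystine exporter (1.46 ± 0.08). Slc43a2 and Slc3a1 were low even in Hb+NTR1 cells, at 1.94 ± 0.164 and 1.39 ± 0.317 normalised CPM, and Ctns had 109.3 ± 2.06 there, against 39.8 ± 3.16 in Hb cells.

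Against control cells the largest changes of that list were of the same 6 genes in Hb+NTR1 cells, with log2 fold changes of -4.90 ± 0.10 for Slc1a3, 2.36 ± 0.41 for Slc43a2, 2.05 ± 0.47 for Slc3a1, -1.64 ± 0.06 for Slc38a4 and 1.48 ± 0.08 for Ctns, beside the bound given for Slc6a7. Both comparisons use the same Hb+NTR1 libraries. In Hb cells against control cells, 2 of the 20 fell, beside 1.77% of all genes called lower, and none rose. These were Slc1a3 (log2 fold change -0.78 ± 0.07; edgeR adjusted p = 2.23e-07) and Slc38a6 (-0.36 ± 0.10; edgeR adjusted p = 0.0408), and the call of Slc38a6 was lost under 8 of the alternatives, with an adjusted p of up to 0.134; 6 of these left out 1 library, any of the 3 control libraries, Hb replicate 1, or Hb+NTR1 replicate 1 or 3. Without Hb replicate 2, 1 gene of the list was called higher. The authors' deposited table of Hb+NTR1 against control, whose smallest absolute log2 fold change is 2.0046, lists none of the 10 transporters. It lists Slc1a3 at a log2 fold change of -4.90, Slc43a2 at 2.39 and Slc3a1 at 2.09.

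All 14 amino acid sensing genes were tested. In Hb+NTR1 cells against Hb cells, 6 rose and 5 fell (42.9% and 35.7% of the 14), not far from the 30.7% and 31.6% of all genes, with a median of 0.13. Against control cells 5 rose and 5 fell (35.7% each), beside 31.4% and 32.2% of all genes, with a median of 0.09. The leading changes against Hb were in Sesn3, which encodes a member of the sestrin family of mTORC1 inhibitors (log2 fold change 1.06 ± 0.08), and Gatsl3, the older symbol of the arginine sensor Castor1 (-0.91 ± 0.19). Next were Lars, the leucyl-tRNA synthetase (-0.75 ± 0.06), and Gatsl2, now Castor2 (0.58 ± 0.08). Against control they were Sesn3 (0.92 ± 0.08), Lars (-0.79 ± 0.06), Rragc, a Rag GTPase that recruits mTORC1 to the lysosome (0.72 ± 0.06), and Atf4 (-0.64 ± 0.07). With 1 library left out, 4 to 6 rose and 5 fell in either comparison of Hb+NTR1 cells. In Hb cells against control cells edgeR called none of the 14, beside 3.65% of all genes, with 3 at an unadjusted p under 0.05, and DESeq2 none. Without Hb replicate 2, edgeR called 1 lower, and with library totals alone it called 1 higher.

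Atf4, the transcription factor named above, had 425.2 ± 19.8 normalised CPM in Hb+NTR1 cells and 615.0 ± 58.8 in Hb cells (SD, n = 3), and fell by 0.53 ± 0.07 on the log2 scale (SE; edgeR adjusted p = 3.22e-07). Myc, another regulator known to act on transporter genes, fell by 0.27 ± 0.07 against Hb (edgeR adjusted p = 0.00283). Of 24 genes listed as ATF4 targets outside the transporters, 23 were tested, and against Hb cells 20 fell and 3 rose in Hb+NTR1 cells (86.96% and 13.04%), beside 31.6% and 30.7% of all genes, with a median log2 fold change of -1.02. Against control cells 19 fell and 2 rose (82.6% and 8.70%), beside 32.2% and 31.4% of all genes, with a median of -0.94. The largest falls against Hb were in Pycr1 (-2.88 ± 0.13) and Aldh18a1 (-1.63 ± 0.06), both of proline synthesis, Cth (-2.52 ± 0.10), which makes cysteine from cystathionine, and Shmt2 (-2.07 ± 0.07), the mitochondrial serine hydroxymethyltransferase. Against control these were -3.01 ± 0.12 for Pycr1, -2.54 ± 0.10 for Cth, -2.10 ± 0.07 for Shmt2 and -1.70 ± 0.06 for Aldh18a1. The 3 that rose against Hb were Ddit3 (0.53 ± 0.09), Nupr1 (0.29 ± 0.10) and Ddit4 (0.25 ± 0.09), named after their values were seen. The Ddit4 libraries of the groups overlapped. The number that rose against Hb was 1 without Hb replicate 1, and 2 without Hb+NTR1 replicate 2 or without Hb+NTR1 replicate 3. Against control it was 1 without Hb+NTR1 replicate 2. The number that fell was 20 against Hb with any library left out. In Hb cells against control cells edgeR called none of the 23, beside 3.65% of all genes, with 4 at an unadjusted p under 0.05, and DESeq2 none. In that comparison edgeR called 1 lower without Hb replicate 2, with no filter on low counts, or with the replicate block. Atf4 had a log2 fold change of -0.10 ± 0.07 (edgeR adjusted p = 0.481).

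**Figure D5:**
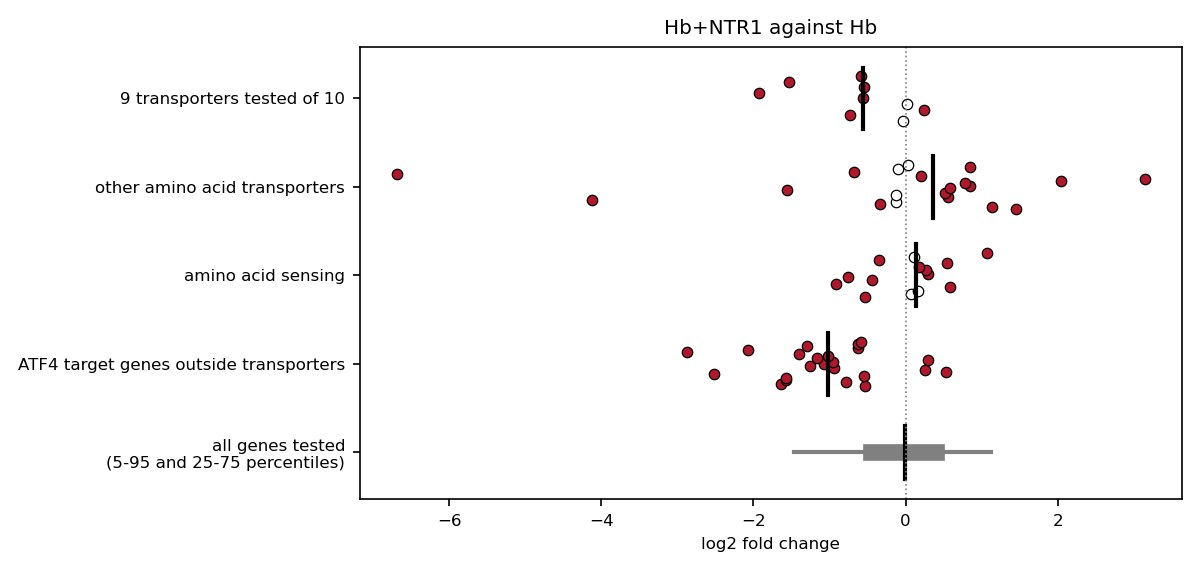
Log2 fold changes in Hb+NTR1 cells against Hb cells (horizontal axis) of single genes in 4 lists, filled where the adjusted p was under 0.05, with the list's median as a black line and the spread of all genes tested in grey. The ATF4 targets lie mostly below 0 (20 of 23 called lower), the other transporters lie on both sides (11 higher, 5 lower), and Slc6a7, without counts in Hb+NTR1 libraries, is drawn at its fitted value, which is no bound.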

How the data were processed

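The authors deposited raw counts per gene symbol for 9 libraries and 54232 rows; 98 exact repeats were removed. Per the submitters' processing notes, the tools were HTSeq 0.10.0 and HISAT2 2.1.0, with bcl2fastq 2.19.1.403, on GRCm38; the sources used here do not give the annotation release, strand setting or handling of multi-gene reads. Count columns beginning in N were taken as Hb+NTR1, since no other columns stand beside those of control in the authors' deposited table of Hb+NTR1 against control. That table gives the authors' log2 fold changes and p-value columns, whose test is likewise not given; every row has an absolute log2 fold change of 2.0046 or more and an adjusted p of 0.00994 or less.

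Tests used edgeR 4.0.16 (R 4.3.3). The filter filterByExpr, at its minimum count of 10, left 13810 genes, which were scaled by TMM factors and fitted in 1 robust quasi-likelihood model with a term for group (common biological coefficient of variation 6.90%). Tests were two-sided, with Benjamini-Hochberg adjustment over all genes per comparison and a threshold of 0.05. SE is the absolute log2 fold change over the square root of F. Simulated counts were also run through the model. The setting and outcome of that run are not given here, so it lends no weight to any comparison, least of all those of Hb+NTR1 cells. Ratios within a library were tested by exact permutation over 20 arrangements. Likeness used log2 of normalised CPM plus 0.5. Positions and exon lengths are from GENCODE M21 on GRCm38, matched by symbol.

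Alternatives were DESeq2 size factors, library totals, mitochondrially encoded genes removed, other filters, DESeq2 1.42.0, only the 6 libraries compared, a replicate block, and each library left out. Leaving out libraries for the ratios was added after seeing the data. The transporters, lists and motifs were chosen with earlier results of these data known. Named by rule besides the 10 transporters were the called genes with the largest absolute log2 fold change (up to 6 of the other transporters and 4 of each other list per comparison), Atf4, Myc and the 5 genes most like Slc3a2. Other genes were named outside that rule. Among them were the ATF4 targets that rose, the lysosomal transporters, Slc36a4, Slc7a11 and Slc7a7. Intervals and the 3-count floor cover counting error or the spread between these libraries only.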

Additional observations from a re-analysis of the deposited data

How the results depend on the processing

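In both comparisons of Hb+NTR1 cells the 7 called transporters kept their direction and call under all 17 alternatives, and 7 of 9 were called in each. In Hb against control, where no transporter was called, library totals alone gave 1 (Slc6a9), and leaving out single libraries gave 0 to 1. Genes called in that comparison, 504 over all genes, ranged from 285 to 1125 with 1 library left out, the highest without Hb replicate 2 and the lowest without control replicate 2; the cause was not tested. Values that changed sign were all uncalled and near 0. For Hb against control these were Slc38a2 with library totals alone (0.015), and, over the libraries left out, Slc3a2 (-0.050 to 0.052), Slc38a1 (-0.0012 to 0.088) and the log2 ratio of Slc1a5 to Slc1a4 (-0.047 to 0.036). For Hb+NTR1 against Hb they were Slc1a4 (-0.068 to 0.015) and the log2 ratio of Slc7a6 to Slc3a2 (-0.11 to 0.024). For Hb+NTR1 against control, Slc38a2 was 0.0061 with DESeq2 size factors in edgeR, 0.063 with library totals alone, 0.0020 without mitochondrially encoded genes, 0.00071 with at least 1 CPM in at least 3 libraries, 0.0061 in DESeq2, and -0.014 to 0.020 with 1 library left out. Library totals alone moved the median of all genes to 0.04 in Hb against control, 0.01 in Hb+NTR1 against Hb and 0.06 in Hb+NTR1 against control. Libraries with the same replicate number did not deviate together (correlations of -0.05 to 0.12), so the numbers were not taken as pairs. With the replicate block, 8706 genes were called in Hb+NTR1 against Hb, 8898 in Hb+NTR1 against control and 645 in Hb against control, with 7, 7 and 0 of the transporters, and the block changed no call of the 10 transporters; 1 ATF4 target was then called lower in Hb against control. Depth limits Slc43a1, Slc6a7, Slc43a2, Slc3a1 and Ccdc24, which had few counts per library.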

Other observations

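Of 6 transporters known to sit on lysosomes, a group put together after its values were seen, Ctns, Pqlc2, Slc38a9, Slc38a7 and Slc36a1 rose in Hb+NTR1 cells against both other groups, and Slc15a4 did not; 30.7% of all genes were called higher against Hb and 31.4% against control. Slc36a4, a relative of Slc36a1, was not called (log2 fold change -0.13 ± 0.09 against Hb and -0.19 ± 0.09 against control). Pqlc2, a lysosomal exporter of cationic amino acids, had a log2 fold change of 1.13 ± 0.14 (SE) against Hb and 1.38 ± 0.14 against control. Slc38a9, which reports lysosomal arginine to mTORC1, had 0.78 ± 0.11 against Hb and 1.06 ± 0.12 against control. Slc38a7, a lysosomal glutamine exporter, had 0.84 ± 0.09 against Hb and 0.88 ± 0.09 against control. Slc36a1, a proton-coupled exporter of small neutral amino acids, had 0.56 ± 0.09 against Hb and 0.78 ± 0.09 against control. Slc15a4, a histidine and peptide carrier, fell by 0.33 ± 0.09 against Hb (edgeR adjusted p = 0.00334) and had -0.13 ± 0.09 against control (edgeR adjusted p = 0.227). In Hb against control edgeR called none of these 6, beside 3.65% of all genes.

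Slc7a11, which encodes the light chain xCT of the cystine-glutamate exchanger and also pairs with 4F2hc, fell by 0.67 ± 0.10 against Hb (edgeR adjusted p = 4.78e-06) and by 0.56 ± 0.10 against control (edgeR adjusted p = 5.63e-05). Its log2 fold change in Hb against control was 0.12 ± 0.10 (edgeR adjusted p = 0.611). Slc7a7, another light chain gene of the Slc7 family, did not fall in Hb+NTR1 cells. Its log2 fold change there was 0.03 ± 0.22 against Hb (edgeR adjusted p = 0.902). Against control it was 0.73 ± 0.23 (edgeR adjusted p = 0.00868). In Hb against control the Slc7a7 value was 0.70 ± 0.23 (edgeR adjusted p = 0.113), so a difference of that size from control was present with oxyhemoglobin alone, though not called. Counts of Slc7a7 were low, at 26 to 57 per library.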
